A study of Mus musculus with 9 samples.

Results

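The 10 genes described here are mouse genes of neutrophil granules and of the neutrophil cytosol and surface: Mpo, Elane, Ngp, Camp, Ltf, Lcn2, S100a8, S100a9, Ly6g and Retnlg. They were chosen by symbol, and all 10 had a row among the 27179 genes of the deposited matrix and passed the filter on low values. Both groups of mice carried a Lepr-driven, tamoxifen-inducible Cre (Lepr-CreERT) with the Tdtomato reporter, received tamoxifen and had tibia implantation surgery. The 5 conditional knockouts (cKO) carried Grem1fl/fl in addition, so that cells in which Cre had been active lose the secreted BMP antagonist gremlin 1, and the 4 littermate controls carried Cre and the reporter alone. Lineage-negative, tdTomato-positive cells were sorted 2 weeks after the operation from fibrous tissue next to the implant, and their polyadenylated RNA was sequenced. Age is not given, the lineage antibodies are not named, and the labels do not say whether libraries stand for separate animals. The p-values therefore describe spread among libraries, which may be technical.

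Neutrophils make their granules in order while they mature in bone marrow. The promyelocyte fills azurophil granules with myeloperoxidase and serine proteases, the myelocyte and metamyelocyte then make the proteins of specific granules, and the late cell adds gelatinase granules and the receptors of a circulating neutrophil. Messenger RNA of the first granule set is lost as the cell matures. Not all of the 10 products are stored in granules: S100A8 and S100A9 lie in the cytosol, RETNLG is secreted, and Ly6G is the surface antigen commonly used to sort mouse neutrophils and a common target of lineage antibody mixes.

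Whole reads recovered from the matrix came to 76.3 to 87.2 M in cKO replicates 1 to 4, 43.5 M in cKO replicate 5 and 44.8 to 53.4 M in controls. The 4 deepest libraries were all cKO, so for most libraries depth and genotype cannot be told apart. Grem1 had 83.2, 46.4, 125, 133 and 60.8 normalized counts in cKO replicates 1 to 5, against 736, 517, 676 and 356 in control replicates 1 to 4 (two-sided exact permutation test, p = 0.00794, the smallest these group sizes allow; limma adjusted p = 0.00781). Col1a1, the collagen gene of stromal cells, reached 1238854 to 4522428 in cKO libraries and 1953074 to 2602744 in controls. The leukocyte gene Ptprc (CD45) was read in all of them as well, with 277, 3674, 80.0, 158 and 846 normalized counts in cKO libraries and 1798, 1766, 1492 and 1245 in controls. A normalized count is a read count divided by a size factor of the library. In bulk RNA such as this, fewer cells of a type and less RNA per cell cannot be told apart.

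The share of RNA taken by these genes varied widely among libraries. Together the 10 genes made up 0.178, 1.39, 0.0841, 0.178 and 0.186% of normalized counts in cKO replicates 1 to 5, and 0.241, 0.938, 0.431 and 0.219% in controls 1 to 4. A single library stood apart in each group: cKO replicate 2 was the highest cKO library for all 10 genes, and control replicate 2 the highest control for 9 of them, all but Retnlg. At the other end, cKO replicate 3 was the lowest cKO library for 8 of the 10. Results are therefore given with and without these 2 high libraries.

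**Figure D1:**
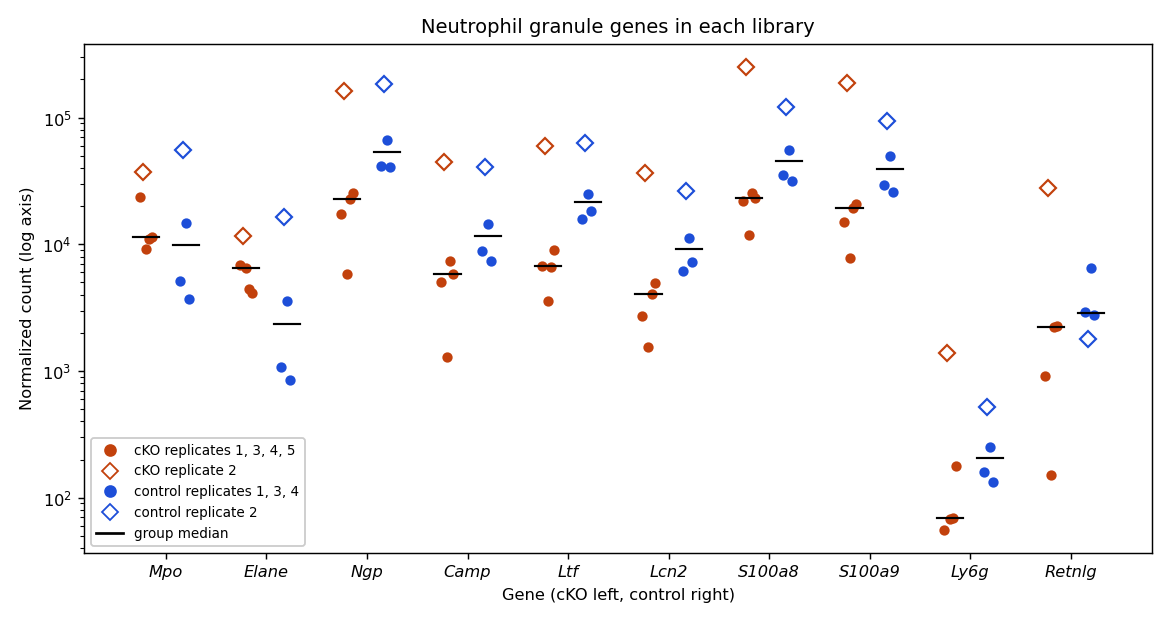
Normalized counts (log axis) of the 10 genes in each library, cKO at the left and control at the right of each gene, with replicate 2 of each group as an open diamond and a line at the group median. The groups overlap for all 10 genes, and the open diamonds lie above the other libraries of their group except for Retnlg in controls.

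No difference between genotypes passed the test for any of the 10 genes. The test was limma on log2(normalized count + 1) over the 15832 genes with at least 10 normalized counts in at least 4 libraries, with Benjamini-Hochberg adjustment, and 7.48% of all genes tested passed it at an adjusted p under 0.05, 4.61% as higher and 2.87% as lower in cKO. At an unadjusted p under 0.05 the count was also 0 of 10, against 26.9% of all genes. The groups overlapped for each of the 10, while they did not overlap for 11.4% of genes. The quasi-likelihood test of edgeR, run on whole reads recovered from the matrix, also called 0 of 10 at either level, and 4.96% of all genes at an adjusted p under 0.05. DESeq2 called 16.5% of the genes to which it gave an adjusted p. It gave no p-value for 7 of the 10, so only Camp, Elane and Mpo could be called, and none was. The authors' deposited table likewise holds no p-value for these 7, and its adjusted p for Camp, Elane and Mpo was 0.828, 0.856 and 0.964. Of the 17932 rows with a fold change in that table, only 3.75% had no p-value. The median log2 fold change of the 10 genes was -0.81, with 8 below 0 and 2 above, beside a median of -0.0039 over all genes tested. Under the count models the median of the 10 was -0.074 with edgeR and -0.048 with DESeq2. The intervals were wide, such as -3.05 to 0.22 for Ltf and -3.43 to 1.84 for Retnlg, so the missed threshold does not show that levels were alike.

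**Figure D2:**
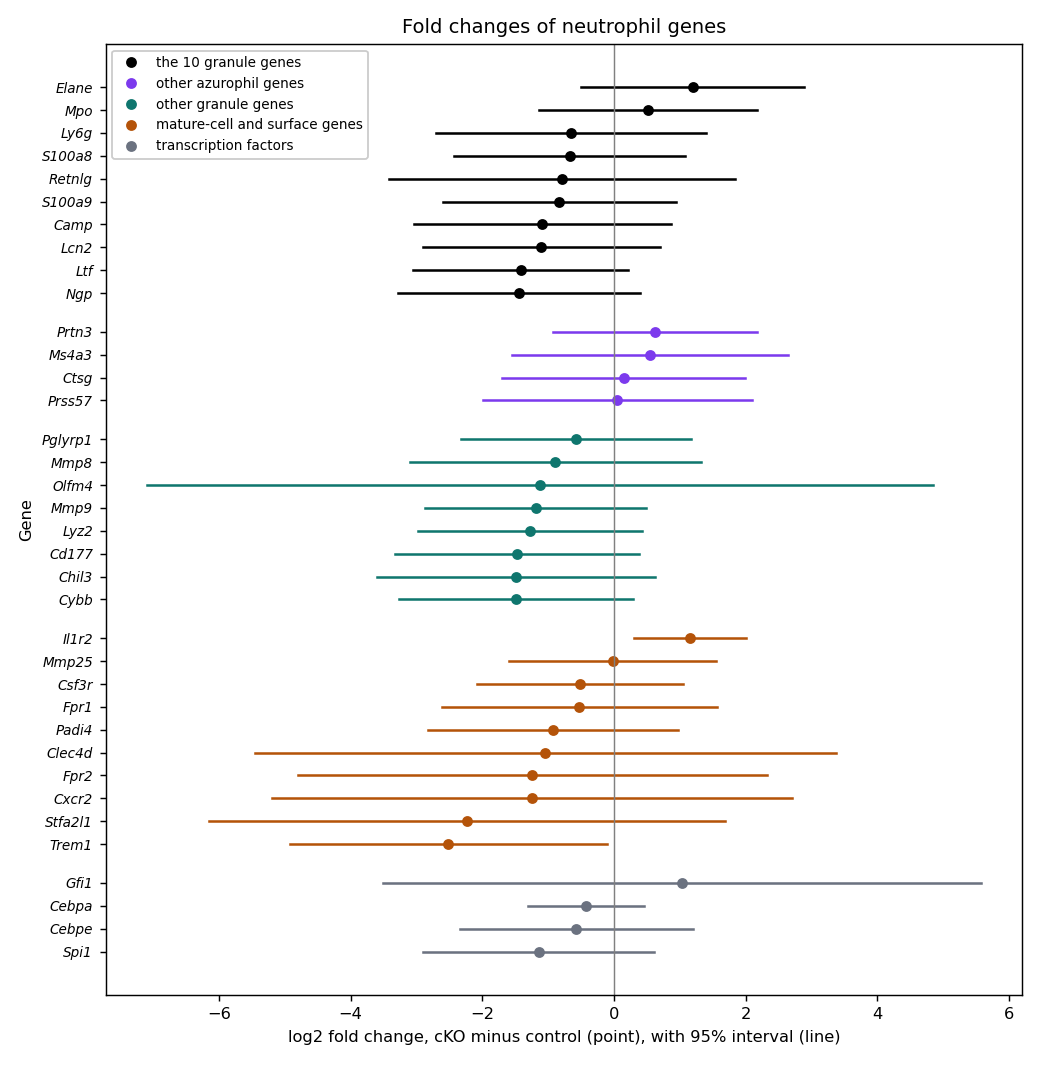
Log2 fold change of cKO minus control for the 10 genes (black) and for 26 other neutrophil genes in 4 lists, with points for the limma estimate and lines for its 95% interval. Elane and Mpo lie above 0 and the other 8 genes below in this fit (signs of 4 of the 10 turn with edgeR), and every interval of the 10 spans 0.

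Mpo and Elane, the azurophil granule genes, had a pattern of their own. Mpo encodes myeloperoxidase, which makes hypochlorous acid, and Elane encodes neutrophil elastase, a serine protease. Mpo had 23449, 37089, 9139, 11078 and 11514 normalized counts in cKO replicates 1 to 5, and 5113, 55418, 14773 and 3669 in controls 1 to 4. Its lowest values were in controls 4 and 1 and its highest in control 2, so that the cKO range lay inside the control range. The fit gave log2 fold change 0.51, SE 0.74, 95% interval -1.14 to 2.17, limma adjusted p = 0.69. For Elane the values were 6877, 11554, 6473, 4399.6 and 4115 in cKO libraries and 1070.1, 16387, 3587 and 855 in controls. All 5 cKO libraries were above 3 of the 4 controls, and control 2 was above all of them. The fit for Elane gave log2 fold change 1.2, SE 0.76, 95% interval -0.50 to 2.89, limma adjusted p = 0.341. Within the cKO group Elane varied 2.81-fold between the lowest and highest library, the narrowest range of the 10 genes there, and within controls 19.2-fold, the widest there. Without control 2 the log2 fold changes were 2.06 for Elane and 1.29 for Mpo (limma adjusted p = 0.0575 and 0.209).

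The promoters of both genes are shown because their profiles across libraries were like each other and unlike those of the other 8 genes. The windows run from 250 bases before to 50 after the RefSeq start (build GRCm38.p6), at chr11:87793534-87793833 on the + strand for Mpo and chr10:79886062-79886361 on the + strand for Elane, read 5′ to 3′ along the gene. Capitals mark matches to GAGGAA, the core bound by the myeloid factor PU.1, searched on both strands. The C/EBP motif TTGCNNAA, also searched on both strands, had no match in either window, which says nothing about binding elsewhere.
Mpo: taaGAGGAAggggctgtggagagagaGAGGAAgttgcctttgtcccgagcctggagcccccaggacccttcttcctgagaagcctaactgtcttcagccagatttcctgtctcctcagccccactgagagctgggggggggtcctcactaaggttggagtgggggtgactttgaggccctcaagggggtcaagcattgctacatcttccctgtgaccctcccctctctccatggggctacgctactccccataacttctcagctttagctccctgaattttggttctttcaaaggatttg
Elane: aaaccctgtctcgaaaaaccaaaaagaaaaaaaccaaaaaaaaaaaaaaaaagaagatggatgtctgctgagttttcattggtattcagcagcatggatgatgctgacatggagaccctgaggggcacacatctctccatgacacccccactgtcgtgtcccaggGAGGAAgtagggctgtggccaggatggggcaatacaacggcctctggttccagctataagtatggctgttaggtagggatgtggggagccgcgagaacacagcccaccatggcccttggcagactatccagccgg
Mpo held 2 PU.1 matches and Elane 1. In all, 6 of the 10 genes had a PU.1 match in the first window listed for them, where 28.3% of 32851 promoter windows of the same length had one.

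Ngp, Camp, Ltf and Lcn2, the specific granule genes, shared one profile. Ngp encodes neutrophilic granule protein, a relative of the cathelicidins. Its normalized counts were 17271, 160997, 5853, 22764 and 25262 in cKO libraries and 41254, 185509, 66528 and 40495 in controls. The cKO libraries other than replicate 2 were below every control, while cKO 2 was above controls 1, 3 and 4. The fit gave log2 fold change -1.44, SE 0.82, 95% interval -3.28 to 0.39, limma adjusted p = 0.29. Camp, the mouse cathelicidin antimicrobial peptide precursor, had 4999, 44782, 1281, 7349.7 and 5798 in cKO libraries and 8806, 40869, 14461 and 7343 in controls. Here cKO 4 was just above control 4, and cKO 2 was above every control (log2 fold change -1.09, SE 0.88, 95% interval -3.04 to 0.86, limma adjusted p = 0.455).

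Ltf encodes lactoferrin, the iron-binding protein of specific granules, and had the smallest p of the 10 genes. Its values were 6796, 59829, 3559, 6582 and 9041 normalized counts in cKO libraries and 15778, 63532, 24879 and 18167 in controls. All cKO libraries other than replicate 2 were below the lowest control (log2 fold change -1.42, SE 0.74, 95% interval -3.05 to 0.22, limma adjusted p = 0.246). Lcn2 encodes lipocalin 2, which binds bacterial siderophores and is also made by cells other than neutrophils. It had 2724, 36545, 1557, 4051 and 4907 in cKO libraries and 6158, 26509, 11172 and 7293 in controls, with the same cKO libraries below every control (log2 fold change -1.11, SE 0.81, 95% interval -2.91 to 0.69, limma adjusted p = 0.411). Without cKO 2, Ltf passed the test (log2 fold change -2.07, limma adjusted p = 0.039), and so it did without both replicate 2 libraries (-1.64, limma adjusted p = 0.0459). It was the one gene of the 10 that did so in either fit. Over all genes tested, 669 were called without cKO 2 and 275 without both. Ltf was highest in the replicate 2 library of each group, and the fit without both was added after the levels were seen.

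The promoter windows of Ngp and Ltf are shown because both held matches to the C/EBP motif TTGCNNAA, bound by the family of factors that includes the granulocyte regulator C/EBPε. They lie at chr9:110419558-110419857 and chr9:111019042-111019341, both on the + strand of GRCm38.p6 per RefSeq. Capitals mark C/EBP matches on either strand and, in Ltf, a PU.1 match (TTCCTC, the reverse complement of GAGGAA); no 2 matches overlap in these windows.
Ngp: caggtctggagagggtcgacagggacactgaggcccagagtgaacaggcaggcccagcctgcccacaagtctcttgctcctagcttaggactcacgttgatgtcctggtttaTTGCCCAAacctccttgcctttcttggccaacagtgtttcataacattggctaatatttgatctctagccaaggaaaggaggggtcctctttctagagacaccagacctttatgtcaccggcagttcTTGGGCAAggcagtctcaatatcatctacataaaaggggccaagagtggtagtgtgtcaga
Ltf: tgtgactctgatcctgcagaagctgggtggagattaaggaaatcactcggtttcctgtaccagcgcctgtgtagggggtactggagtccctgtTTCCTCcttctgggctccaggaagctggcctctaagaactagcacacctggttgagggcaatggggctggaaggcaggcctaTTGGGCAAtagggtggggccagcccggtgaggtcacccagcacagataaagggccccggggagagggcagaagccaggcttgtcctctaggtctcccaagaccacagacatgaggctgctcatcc
Ngp held 2 C/EBP matches and Ltf 1. Among the 10 genes 6 had a C/EBP match, against 10.8% of the 32851 windows, and the Camp window held neither motif. A match describes these letters and does not show binding.

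S100a8 and S100a9 encode the subunits of calprotectin, the calcium- and zinc-binding dimer that fills the neutrophil cytosol, and were the most abundant of the 10 genes per kilobase of exon. On that scale they took the first and second place in all 9 libraries, with medians of 45347 and 49747 normalized counts per kilobase. S100a8 had 21831, 250412, 11803, 25417 and 23229 normalized counts in cKO libraries and 35131, 121108, 55923 and 31471 in controls. In cKO 2 it ranked 9th by normalized count among all genes of that library, and in cKO 3 it ranked 695th. Other than cKO 2, the cKO libraries were below every control (log2 fold change -0.67, SE 0.79, 95% interval -2.43 to 1.09, limma adjusted p = 0.617). S100a9 had 15031, 187069, 7848, 19355 and 20832 in cKO libraries and 29636, 94791, 49499.8 and 25968 in controls, in the same order of libraries except that cKO 4 and 5 changed places (log2 fold change -0.83, SE 0.80, 95% interval -2.60 to 0.95, limma adjusted p = 0.536). The ratio of S100a8 to S100a9 stayed between 1.12 and 1.5 in cKO libraries and between 1.13 and 1.28 in controls, although each gene alone varied 21.2-fold and 23.8-fold over the 9 libraries.

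Retnlg and Ly6g belong to the late, mature cell. Retnlg encodes resistin-like gamma, a secreted protein of maturing and circulating mouse neutrophils. Its values were 908, 27787, 151, 2218 and 2248 normalized counts in cKO libraries and 2929, 1796, 6522 and 2775 in controls. It spanned 185-fold among cKO libraries, the widest range of the 10 genes, and was lowest among controls in control 2, the library that led the other 9 genes (log2 fold change -0.79, SE 1.18, 95% interval -3.43 to 1.84, limma adjusted p = 0.7). Without cKO 3 its log2 fold change was 0.10 (limma adjusted p = 0.961). Ly6g had 55.9, 1394, 68.5, 68.6 and 177 in cKO libraries and 159, 517, 252 and 134 in controls. It was the lowest of the 10 per kilobase in all 9 libraries, and cKO 2 was above every control while cKO 1, 3 and 4 were below them (log2 fold change -0.65, SE 0.92, 95% interval -2.70 to 1.39, limma adjusted p = 0.681). It belongs to the Ly6 family of related genes, and how reads shared between relatives were counted is not stated.

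The order per kilobase below S100a8 and S100a9 was Ngp, Camp, Ltf, Elane, Retnlg, Mpo, Lcn2 and Ly6g, by the median over the 9 libraries. Ngp had a median of 33138 normalized counts per kilobase, Camp 9696 and Ly6g 169. The medians of Ltf, Elane, Retnlg, Mpo and Lcn2 lay between 2348 and 4573. Ranges of neighbours in this order overlapped throughout. S100a9 was first in cKO 4 and 5 and all controls, and S100a8 in cKO 1, 2 and 3. Exon lengths came from GENCODE M21 on GRCm38.

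Ngp, Camp, Ltf, Lcn2, S100a8, S100a9 and Ly6g had like profiles across libraries, although they are not of 1 class. Mpo and Elane were also like each other. The measure of likeness was the root mean square difference, in log2 units, between the log2 profiles of a pair of genes over the 9 libraries after each was centred on its own mean. The smallest of the 45 differences was 0.143, between S100a8 and S100a9. Camp and Ngp differed by 0.247, Ltf and Lcn2 by 0.249, and S100a9 and Lcn2 by 0.21. Likeness did not keep to granule class: Camp and Ltf differed by 0.457, more than S100a8 and Lcn2 at 0.311. Mpo and Elane differed from each other by 0.495 and from the other 8 genes by 1.07 or more. Retnlg was 1.08 or more from every other gene, and the largest difference of all, 2.35, was between Elane and Retnlg. The genes share library, depth and size factor, so these differences describe the 9 libraries.

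**Figure D3:**
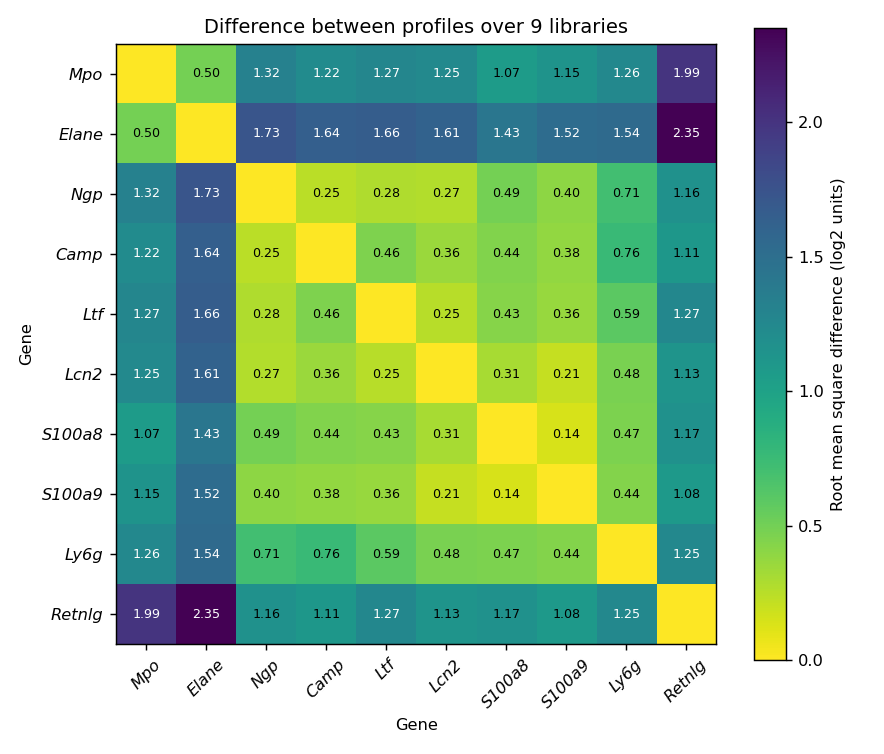
Root mean square difference (log2 units, colour and number) between centred log2 profiles of each pair of the 10 genes over 9 libraries. Ngp, Camp, Ltf, Lcn2, S100a8, S100a9 and Ly6g form a block with differences of 0.758 or less, Mpo and Elane form a pair, and Retnlg stands by itself.

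The 2 high libraries differed in which genes were high. In cKO 2, against the median of the other 4 cKO libraries, Retnlg was 17.8 times as high, Ly6g 20.3, S100a8 11.1 and Ngp 8.04, but Mpo 3.28 and Elane 2.13. In control 2, against the median of the other 3 controls, Elane and Mpo led instead: Elane was 15.3 times as high, Mpo 10.8, Ngp 4.5, S100a8 3.45 and Ly6g 3.24, and Retnlg 0.613. The 4 other genes listed with the azurophil set were each higher by this measure in control 2 than in cKO 2, although by little for Prss57. Their values in cKO 2 were 3.26 for Prtn3, 4.43 for Ctsg, 4.12 for Ms4a3 and 6.38 for Prss57, and in control 2, in that order, 9.48, 9.85, 13.3 and 7.5. The sum of 8 specific and gelatinase granule genes was 9.89 times as high in cKO 2 and 2.7 in control 2, and the sum of 10 mature-cell genes 8.47 in cKO 2 and 1.3 in control 2. Genes within these lists differed: in cKO 2 Cxcr2, the chemokine receptor of mature neutrophils, was at 15.3 and Il1r2 at 1.76, and in control 2 Cxcr2 was at 0.329, Mmp8 at 1.07, Mmp9 at 3.71 and Padi4 at 4.46. Cxcr2 and Mmp8 (neutrophil collagenase) were named after their values were seen, and these ratios of single libraries carry no test.

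Ratios between genes within a library do not depend on its size factor. Of 13 ratios computed, chosen with the values known and given with no test, Mpo to Ngp was 1.36, 0.23, 1.56, 0.487 and 0.456 in cKO replicates 1 to 5 and 0.124, 0.299, 0.222 and 0.0906 in controls 1 to 4. The cKO libraries other than replicate 2 were above every control, and cKO 2 lay inside the control range. Elane to Ngp had the same order between groups, at 0.398, 0.0718, 1.11, 0.193 and 0.163 in cKO libraries and 0.0259, 0.0883, 0.0539 and 0.0211 in controls. S100a8 to Ngp was 1.26, 1.56, 2.02, 1.12 and 0.92 in cKO libraries and 0.852, 0.653, 0.841 and 0.777 in controls, and was the one ratio of the 13 whose groups did not overlap. Mpo to Elane was 1.41 to 3.41 in cKO libraries and 3.38 to 4.78 in controls. The ratio of Ltf to Ngp covered 0.289 to 0.608 in cKO libraries and 0.342 to 0.449 in controls. Retnlg to Ngp was 0.00968 in control 2 and 0.0685 to 0.098 in the other controls, beside 0.0257 to 0.173 in cKO libraries.

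**Figure D4:**
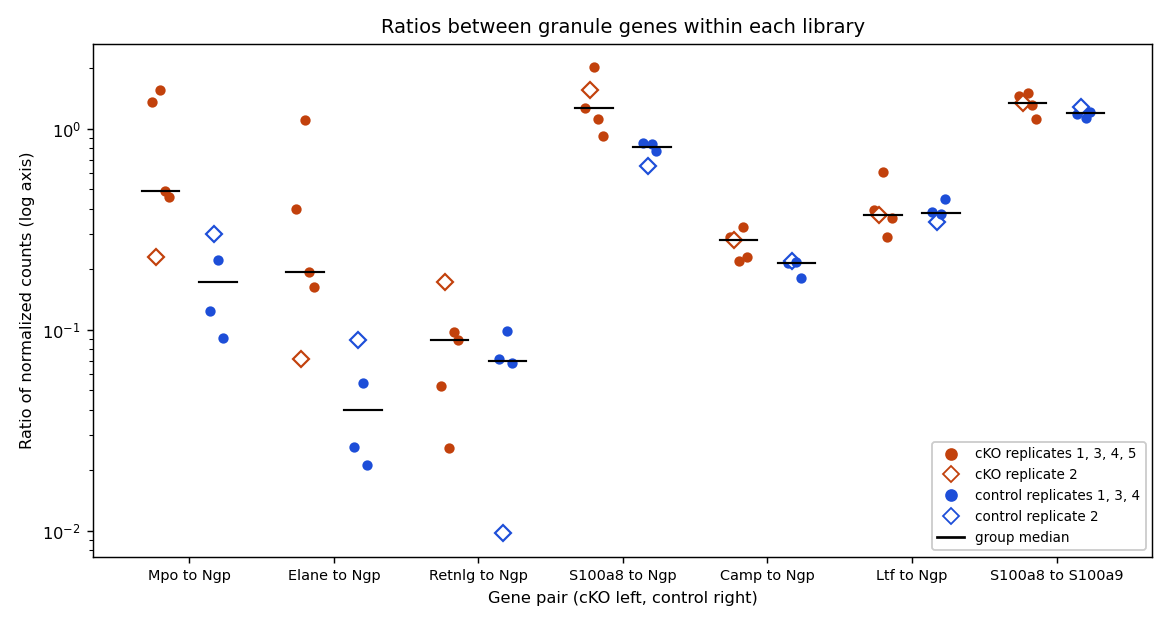
Ratio of normalized counts within a library (log axis) for 7 gene pairs, cKO at the left and control at the right of each pair, open diamonds for replicate 2 and lines for medians. Mpo to Ngp and Elane to Ngp are above every control in the cKO libraries other than replicate 2, and Retnlg to Ngp is lowest in control 2.

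Fold changes moved with the replicate 2 libraries. Without cKO 2 the median log2 fold change of the 10 genes was -1.67, without control 2 -0.51, and without both -1.23. Elane and Mpo were above 0 and the other 8 below 0 in each of these 3 fits. For Ngp they were -2.12, -0.96 and -1.63 in that order, with limma adjusted p of 0.072, 0.538 and 0.13. For S100a8 the log2 fold changes were -1.41 without cKO 2 and -0.27 without control 2 (limma adjusted p = 0.088 and 0.875). Count models compare arithmetic means. There edgeR gave 0.10 for S100a8, 0.38 for Ly6g, 0.91 for Retnlg and -0.12 for Mpo, each of the opposite sign to limma and none past its test (edgeR adjusted p of 0.695 or more). As means, S100a8 had 66539 ± 102921 in cKO libraries and 60908 ± 41553 in controls (SD, n = 5 and 4), and Retnlg 6662 ± 11843 in cKO libraries and 3506 ± 2073 in controls.

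**Figure D5:**
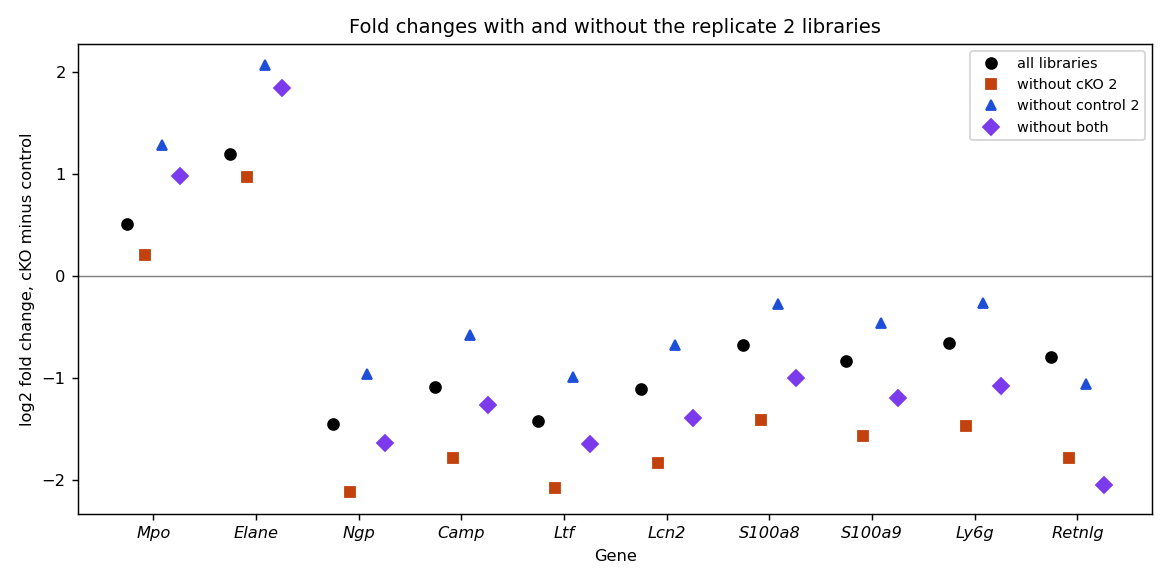
Log2 fold change of cKO minus control for each of the 10 genes from limma with all libraries (black circles), without cKO replicate 2 (squares), without control replicate 2 (triangles) and without both (diamonds). Mpo and Elane are above 0 and the other 8 genes below 0 in the 4 fits shown.

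Other genes of the neutrophil programme were read from 4 lists of 26 genes, all tested. None passed limma over all genes and 2 had an unadjusted p under 0.05, beside 7.48% and 26.9% of all genes tested. Of the log2 fold changes 20 were below 0 and 6 above, and the median was -0.91. Of the 4 genes listed with the azurophil set all were above 0 in limma, with a median of 0.35. For 3 of them edgeR gave values below 0 (Ctsg -0.41, Ms4a3 -0.39 and Prss57 -0.22). Prtn3, the protease proteinase 3, had 2519, 4391, 1387, 1304 and 1135 normalized counts in cKO libraries and 504, 6162, 1053 and 649.8 in controls (log2 fold change 0.63, limma adjusted p = 0.591). Ctsg (cathepsin G) had log2 fold change 0.15, limma adjusted p = 0.925, Ms4a3 log2 fold change 0.54, limma adjusted p = 0.744, and Prss57, another azurophil protease gene, log2 fold change 0.053, limma adjusted p = 0.978. As with Mpo and Elane, control 2 was the highest library for all 4. Of 8 further granule genes all were below 0 in limma, with a median of -1.23, while edgeR and DESeq2 put Mmp8 above 0 (0.30 with edgeR). Cybb, the catalytic subunit of the NADPH oxidase, had 878, 8495, 266, 1042 and 1555 in cKO libraries and 2802, 6387, 3692 and 2378 in controls (log2 fold change -1.49, limma adjusted p = 0.262). The surface gene Cd177 (log2 fold change -1.47, limma adjusted p = 0.287), the lysozyme gene Lyz2 (log2 fold change -1.27, limma adjusted p = 0.314) and the gelatinase gene Mmp9 (log2 fold change -1.19, limma adjusted p = 0.34) had values near it. Cybb, Lyz2 and Mmp9 are also expressed by macrophages, and Mmp9 by osteoclasts. Without cKO 2, Cd177, Lyz2 and the factor gene Spi1 passed (limma adjusted p = 0.0357, 0.0272 and 0.0198). That fit called 669 of all genes tested. Without both replicate 2 libraries none of the 26 passed, these 3 included (limma adjusted p = 0.0708, 0.0613 and 0.0578).

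Among 10 genes of mature neutrophils and their surface, 9 log2 fold changes were below 0 and none passed (median -0.98). The 2 with an unadjusted p under 0.05 had opposite signs. Il1r2, the decoy receptor of interleukin 1, had 444, 967, 568, 530.3 and 679.7 in cKO libraries and 159, 196, 454 and 408 in controls (log2 fold change 1.15, limma adjusted p = 0.0892), and Trem1, an activating receptor of neutrophils and monocytes, had 41.2, 1907, 48.8, 314 and 769.6 in cKO libraries and 1182, 1145, 3481 and 889 in controls (log2 fold change -2.52, limma adjusted p = 0.167). In Il1r2 cKO 1 was just below control 3, and in Trem1 cKO 2 was above 3 controls. Csf3r, the G-CSF receptor, had 199, 3302, 309, 608 and 1035 in cKO libraries and 607, 1297, 946 and 1099.7 in controls (log2 fold change -0.52, limma adjusted p = 0.669; named after its values were seen). Padi4, which citrullinates histones in neutrophils, had log2 fold change -0.93, limma adjusted p = 0.519. Of the 4 transcription factor genes, Spi1 (PU.1) had 226, 4249, 224, 294 and 451 in cKO libraries and 759, 1596, 1261 and 904 in controls (log2 fold change -1.14, limma adjusted p = 0.385). Cebpe, required for specific granules in mice, had 121, 899.8, 95.6, 99.7 and 138 in cKO libraries and 213, 924, 192 and 109 in controls (log2 fold change -0.57, limma adjusted p = 0.678), highest in the replicate 2 library of each group.

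Genes for signals that call neutrophils, and for receptors of their products, had other orders of libraries. Of 8 ligand genes 7 were tested and none passed (2 at an unadjusted p under 0.05, beside 26.9% of all genes). Cxcl5, a CXCR2 ligand, had 41.2, 0, 36.6, 20.2 and 2065 normalized counts in cKO libraries and 897, 3854, 788 and 1772 in controls. There cKO 5 was above 3 of the 4 controls, and the other cKO libraries were below all 4 (log2 fold change -5.32, limma adjusted p = 0.0834). Without cKO 5 Cxcl5 passed (log2 fold change -6.77, limma adjusted p = 0.00456), in a fit that called 3562 of all genes tested. The count models gave -2.09 with edgeR and -2.08 with DESeq2 (edgeR and DESeq2 adjusted p = 0.468 and 0.481). Cxcl1, another CXCR2 ligand, had 1161, 478, 1424, 739 and 1288 in cKO libraries and 486, 692, 472 and 534 in controls, where all cKO libraries other than replicate 2 were above every control (log2 fold change 0.81, limma adjusted p = 0.149). Of 5 receptor genes 4 were tested and 1 rose (beside 4.61% of all genes tested): Slc22a17, the cell-surface receptor of lipocalin 2. It had 2194, 2083, 2274, 2599 and 1436 in cKO libraries and 1216, 672, 1606 and 816 in controls, with cKO 5 inside the control range (log2 fold change 1.03, SE 0.27, 95% interval 0.43 to 1.63, limma adjusted p = 0.0481). The call lies at the edge of the threshold, and of the 9 fits that leave out 1 library, 7 lost it, with limma adjusted p up to 0.116. edgeR did not call it either (edgeR adjusted p = 0.0686), while DESeq2, which called 16.5% of genes, did (log2 fold change 0.97, DESeq2 adjusted p = 0.0113). Lrp2, a further lipocalin 2 receptor gene, had no read in any library.

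Outside the 10 genes, 5 of 13326 named genes with a mean of at least 50 lay nearest to the mean centred profile of the 10. These were Ltb4r1, the receptor of leukotriene B4 (root mean square difference 0.184 log2 units), Wfdc21 (0.211), the monocyte surface gene Ly6c2 (0.271), Plac8 (0.285) and Rac2, a GTPase of blood cells (0.285). Over all genes considered the median difference was 1.32. Of the 10 genes themselves, Elane lay 1.36 from the mean profile, Retnlg 1.18 and Mpo 0.976, and the others at most 0.494 (Ly6g). The mean profile therefore stands poorly for Elane, Retnlg and Mpo. Ltb4r1 had 237, 2107, 103, 262 and 251 normalized counts in cKO libraries and 369, 1308, 825 and 305 in controls (log2 fold change -0.88, limma adjusted p = 0.51), and Wfdc21 had 753, 7635, 427, 858 and 775 in cKO libraries and 1139, 3613, 1639 and 1068 in controls (log2 fold change -0.57, limma adjusted p = 0.659). None of the 5 passed the test (limma adjusted p of 0.51 to 0.737), and replicate 2 was the highest library of either group for each. Both outcomes follow largely from picking the 5 by their likeness to the 10 genes, so they are not separate evidence. With profiles centred within each group, 3 of these 5 were again among the nearest 5.

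Summed markers of all leukocytes, of macrophages and of T and NK cells were highest in the replicate 2 library of each group. Ptprc alone was highest among controls in control 1. B cell and eosinophil sums were the highest of the cKO group in cKO 2, but neither was highest of the controls in control 2. The erythroid sum was highest in neither library. Against the median of the other cKO libraries, cKO 2 was at 8.81 for the B cell sum and 23.6 for the low eosinophil sum. The erythroid sum was at 0.928 there, and the sum of the 10 genes at 8.04. The part of these cells in the levels of the 10 genes was not tested. The summed level of 4 pan-leukocyte genes was 3529, 35914, 1187, 3077 and 6093 in cKO libraries and 9319, 15574, 12741 and 7565 in controls. Of these 4 genes none passed. Against the median of the other libraries of the group, their sum was at 10.9 in cKO 2 and 1.67 in control 2. The sum of the 10 genes was at 8.04 and 4.15 in these libraries. S100a8 reads per Ptprc read were 78.7, 68.2, 148, 161 and 27.4 in cKO libraries and 19.5, 68.6, 37.5 and 25.3 in controls. The 12 macrophage and monocyte genes summed to 2837, 17482, 1671, 2391 and 3852 in cKO libraries and 7573, 10071, 9370.0 and 5614 in controls, with cKO 2 highest. Ly6c2, a gene of nearest profile to the 10, made up 1897, 5693, 3414 and 1905 of the sums in controls 1 to 4. The rest of the sum was not highest in control 2. Of the 12 log2 fold changes 11 were below 0, with a median of -3.67. At an unadjusted p under 0.05 there were 7 of the 12, beside 26.9% of all genes. Of the 12 genes 1, Mrc1, fell (log2 fold change -5.87, limma adjusted p = 0.0211), beside 2.87% of all genes tested. The 4 B cell genes summed to 212 to 4831 in cKO libraries and 514 to 1529.9 in controls, and the 5 T and NK cell genes reached at most 2415 in cKO libraries and 1757 in controls. None of those 9 passed. The 6 eosinophil, basophil and mast cell genes summed to 0 to 639 in cKO libraries and 206 to 1570.0 in controls, and Epx and Ear6 had no read in any library. The sum of 5 measured erythroid genes was highest in cKO 5, at 28097, against 369.5 to 4684 in the other cKO libraries and 7797 to 18975 in controls. Of chondrocyte genes 3 of 6 fell, and of skeletal muscle genes all 5 rose, beside 2.87% of all genes tested called as lower and 4.61% as higher. The chondrocyte sum was 134952 to 1068674 in cKO libraries, against 1746948 to 4046360.0 in controls, and the muscle sum 47534 to 487736 in cKO libraries, against 236 to 886 in controls. Neither sum was highest in a replicate 2 library. Of endothelial genes 2 of 6 fell, beside the same 2.87% of all genes. The endothelial sum was 3630.3 to 6854 in cKO libraries, against 3002 to 100608 in the control group, where replicates 1 and 3 were high. The sum of 8 stromal genes was also highest in the replicate 2 library of each group. Against the median of the other libraries of the group, it was at 1.74 in cKO 2 and 1.12 in control 2. Of these 8 genes 1 rose, beside 4.61% of all genes tested.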

How the data were processed

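Expression in 9 libraries was deposited by the authors as normalized counts, a signal made of gene read counts divided by 1 size factor per library. STAR, featureCounts, DESeq2 and build mm39 are named in the submitters' processing notes, without versions; annotation, strand setting and filters were not given in the sources used here. A second table by the authors holds, per the file headers, mean signal, log2 fold changes with standard errors, a test statistic (score) and p-values. Every value above 0 but 3 was a whole multiple of its library's smallest value (tolerance 0.01), which recovered 43.5 to 87.2 M whole reads per library, and at least 99.99% of values above 0 came out whole. Entrez IDs were matched to an NCBI table of GRCm38.p6, used for names, and 25275 of 27179 matched.

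The main test was limma 3.58.1 (R 4.3.3; eBayes with trend, two-sided) on log2(normalized count + 1), without covariates, for the 15832 genes with at least 10 normalized counts in at least 4 libraries; all 10 genes passed this filter, so no test for genes below it was needed. Fold changes are cKO minus control on that scale, which understates changes of low genes. The procedure was tested on simulated data whose spread among libraries was far smaller than that of the 10 genes. That test cannot show how well changes in these genes would be detected. Alternatives included DESeq2 1.42.0 and edgeR 4.0.16, both run on the recovered reads. With libraries left out, the same 15832 genes were tested, and a group left with 1 library is assumed to vary like the other. The 10 genes and all lists were chosen with earlier results of these data known; leaving out both replicate 2 libraries was added after the levels were seen. Text names the 10 genes and the 5 genes of nearest profile. From the neutrophil, ligand and receptor lists it names every gene past the test, or up to 4 of smallest p in a list. Genes of the cell marker lists that passed are counted but mostly not named. A few listed genes named beyond this are marked or stand as cell markers. The listed erythroid gene Hbb-bt was not analysed here. Promoter sequences are RefSeq's, and all 10 genes had one. Counts of PCR products are not independent molecules.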

Additional observations from a re-analysis of the deposited data

Results flagged for a closer look

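A library stood far from the rest of its group on a log2 scale in 9 of 98 group profiles examined (Dixon's criterion, 0.710 for the 5 cKO libraries and 0.829 for the 4 controls), where chance flags about 1 in 20. The profiles are not independent, and Wfdc21 and Ly6c2 were picked for their likeness to the 10 genes, so the number of flags cannot be read against that rate. Among the 10 genes themselves it was 1 of 20. S100a8 in cKO 2 had 250412 normalized counts, against 11803 to 25417 in the other cKO libraries. The same library was flagged for Ms4a3 at 1728 (others 399 to 542), Spi1 at 4249 (others 224 to 451), Cebpe at 899.8 (others 95.6 to 138), Wfdc21 at 7635 (others 427 to 858) and Ly6c2 at 9068 (others 923 to 1755).

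Among ratios, Retnlg to Ngp was 0.00968 in control 2 and 0.0685 to 0.098 in the other controls. Retnlg to S100a8 was 0.0148 in control 2 and 0.0834 to 0.117 in the other controls. Camp to Ngp was 0.181 in control 4 and 0.213 to 0.22 in the other controls. These ratios share Ngp or Retnlg, so they are not separate observations.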

How the results depend on the processing

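For the 10 genes, 21 alternatives gave 210 values, of which 197 kept their sign and their side of the threshold. Camp, Ngp, Ltf and Lcn2 were below 0 and Elane above 0 under every alternative run. Signs turned with edgeR for S100a8 0.10, Ly6g 0.38, Mpo -0.12, Retnlg 0.91, Ctsg -0.41, Ms4a3 -0.39, Prss57 -0.22, Mmp8 0.30, Cxcr2 1.00, Csf3r 0.12, Wfdc21 0.14 and Plac8 0.078. With DESeq2 they turned for S100a8 0.13, S100a9 0.0011, Ly6g 0.41, Mpo -0.10, Retnlg 0.93, Ctsg -0.38, Ms4a3 -0.36, Prss57 -0.19, Mmp8 0.32, Cxcr2 1.02, Csf3r 0.14, Wfdc21 0.16 and Plac8 0.10. None of these values passed a test, and DESeq2 gave no p for 7 of the 10 genes, Cxcr2 and Wfdc21; the cause was not tested.

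Using only the 5 libraries under 60 M reads, which leaves 1 cKO library assumed to vary like the controls, Grem1 was -3.16 (limma adjusted p = 0.153), and signs turned for Prtn3 -0.090, Ctsg -0.83, Prss57 -1.29, Cxcr2 0.010, Csf3r 0.12 and Cxcl5 0.48. Without controls 1 and 3 Grem1 was -2.36 (limma adjusted p = 0.0934), and signs turned for Prtn3 -0.10, Ctsg -0.057 and Prss57 -0.42. Both fits have fewer libraries.

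With 1 library left out in turn, the 10 genes had 0 to 1 calls, with 1 (Ltf) without cKO 2, and 1 without both replicate 2 libraries. The 26 other neutrophil genes had 0 to 3, with 3 without cKO 2 and 0 without both replicate 2 libraries. Over all genes tested, 669 were called without cKO 2. The median log2 fold change of the 10 ran from -1.67 to -0.40 over these fits, but was -0.074 with edgeR and -0.048 with DESeq2. Ranges that crossed 0 were -0.020 to 1.29 for Mpo, -1.78 to 0.10 for Retnlg, -0.49 to 0.93 for Ctsg, -0.33 to 1.44 for Ms4a3, -0.42 to 0.84 for Prss57, -2.35 to 0.43 for Cxcr2, -1.17 to 0.049 for Cebpe and -1.03 to 0.013 for Plac8.

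The number of genes called among all tested was 1184, and 786 with edgeR, 2546 with DESeq2, 83 with libraries under 60 M reads, 338 without controls 1 and 3, 275 without both replicate 2 libraries and 377 to 3562 with 1 library left out, highest without cKO 5. Replicate numbers gave no pairing: same-numbered libraries correlated at -0.011 to 0.070 after removal of group means, and 1 of 4 numbers matched its own best. A replicate block called 2702 genes and none of the 10; cKO 5 has no partner and drops out of that contrast, so its count stands beside 3562 without cKO 5.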
